A study of Mus musculus with 6 samples.

Results

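Mature adipocytes make several proteins that the liver is better known for releasing into the blood. Described here are 10 genes, *Orm1*, *Orm2*, *Hp*, *Saa3*, *Serpina3n*, *Serpina3c*, *Fgg*, *Alb*, *Apoe* and *Apoc1*, listed by name as plasma proteins usually made by the liver, out of 36144 gene symbols. *Saa3* is among them although its protein is made outside the liver. The 10 genes were chosen with earlier results of these data known. RNA-seq was performed on whole inguinal white adipose tissue (iWAT), with 1 library from each of 3 Cebpa_fl/fl and 3 Cebpa_ASKO mice, to ask how the tissue differs when adipocytes lose C/EBPα. Both genotypes carried the floxed *Cebpa* alleles on a C57BL6/J background, and they were littermates that differed in the AdipoQ-Cre transgene, absent in Cebpa_fl/fl and present in Cebpa_ASKO. All 6 mice were females of 10 weeks with free access to food, the left and right inguinal depots of each mouse went into 1 extraction without their lymph nodes, and all samples carry the same batch label. AdipoQ-Cre acts in cells that express adiponectin, late in differentiation, and is not meant to act in the other cells of the depot, while committed preadipocytes can express adiponectin too. The libraries held 46237121, 46601320 and 49477671 estimated counts in Cebpa_fl/fl and 33141769, 37957065 and 42243013 in Cebpa_ASKO. Levels are given as TPM, which kallisto corrects for transcript length and scales to the same total in every library, so that genes can be set beside each other.

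The acute-phase response is the change in plasma proteins that follows injury or infection. Interleukin-6 and related cytokines act through STAT3, interleukin-1 and TNF act through NF-κB, and glucocorticoids strengthen both, while C/EBP family factors bind many of the responding promoters in hepatocytes. In adipose tissue, orosomucoid, haptoglobin and serum amyloid A3 are known as proteins that adipocytes or tissue macrophages release, and apolipoprotein E is made by both of these cell types.

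*Cebpa* itself was the check on the genotypes. Its level was 204, 238 and 243 TPM in the Cebpa_fl/fl libraries and 17.3, 23.9 and 20.1 TPM in the Cebpa_ASKO libraries, which is 8.94% of control on average. Every Cebpa_ASKO library lay far under every control, as their labels require. The tissue label was checked with 10 adipocyte markers, which summed to 40813, 57162 and 48487 TPM in Cebpa_fl/fl and 13478, 12361 and 14036 TPM in Cebpa_ASKO. *Cfd* was the most abundant of them in controls, and *Fabp4* was in Cebpa_ASKO. None of these markers was at 0 in any library. By edgeR's test 6 of the 10 were called lower in Cebpa_ASKO, *Adipoq*, *Plin1*, *Cidec*, *Retn*, *Lpl* and *Cfd*, against 3.84% of all genes tested. The median log2 fold change of the list was -1.23. *Fabp4*, among the highest in CPM, was not called by edgeR (log2 fold change -0.86, adjusted p = 0.107), although every Cebpa_ASKO library lay under every control. DESeq2 called 9 of the 10 lower, *Fabp4* among them, and limma 6. In edgeR 5 of the list were called without Cebpa_ASKO 1, where *Plin1* was lost. Without Cebpa_ASKO 2 the number was 4, and *Plin1* and *Lpl* were lost.

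In markers of other cell types, some libraries stood apart from the others of their genotype. Cebpa_fl/fl 1 held far more lymphocyte RNA, with 264 TPM summed over 10 lymphocyte genes against 38.8 and 18.9 TPM in the other controls and 17.8, 19.4 and 31.2 TPM in Cebpa_ASKO. Its B cell gene *Cd79a* reached 68.8 TPM, while the other 5 libraries lay between 0.222 and 1.20 TPM. Cebpa_fl/fl 2 held more macrophage RNA, with 3328 TPM summed over 15 macrophage genes against 1639 and 1169.8 TPM in the other controls, and *Lyz2* was the most abundant of them. Cebpa_ASKO 2 held the most skeletal muscle RNA, 5694 TPM over 15 genes against 2578 and 2122 TPM in the other Cebpa_ASKO libraries and 649, 1029 and 734 TPM in controls. Cebpa_ASKO 3 held the most endothelial RNA of its genotype, 226 TPM over 9 genes against 124 and 128 TPM. Its macrophage sum was also the highest of its genotype, 2936 TPM against 1814 and 2058 TPM.

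Most of the 10 genes were lower in Cebpa_ASKO iWAT. All 10 passed edgeR's filter on low counts, and 7 were called lower at an adjusted p below 0.05 over the 16069 genes tested, namely *Orm1*, *Orm2*, *Hp*, *Serpina3c*, *Alb*, *Apoe* and *Apoc1*. Over all genes tested 617 were called lower, or 3.84%, and 840 were called in either direction, or 5.23%. In either direction DESeq2 called 1796 genes and limma on log2(TPM + 1) called 626. None of the 10 was called higher by edgeR, against 1.39% of all genes, nor by DESeq2 or limma. At an unadjusted p below 0.05 by edgeR, 0 of them were higher, while 3185 of the 16069 genes tested passed it in either direction. That number is the one to set beside such counts for the lists below. In 8 of the 10 genes, the 7 called and *Serpina3n*, every Cebpa_ASKO library lay under every control, which 13.2% of all genes tested also showed. The median log2 fold change of the 10 was -2.37, and that of all genes tested was 0.025. Because the 10 were chosen with earlier results of these data known, these counts and medians describe them and do not test them as a set. In whole tissue, fewer cells of a type and less RNA in each such cell cannot be told apart. *Orm1*, *Hp* and *Serpina3c* were called in all 16 settings tried, whereas each of the others lost its call when some library was left out. The number called over all genes moved as well, from 840 to between 311 and 922 with a library left out. A fit with fewer samples also has less power, and why calls were lost was not tested. Without Cebpa_fl/fl 1, Cebpa_fl/fl 3, Cebpa_ASKO 1 or Cebpa_ASKO 2, 4 of the 10 genes were called lower each time. Without Cebpa_fl/fl 2 the number was 6, and without Cebpa_ASKO 3 it was 7.

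**Figure D1:**
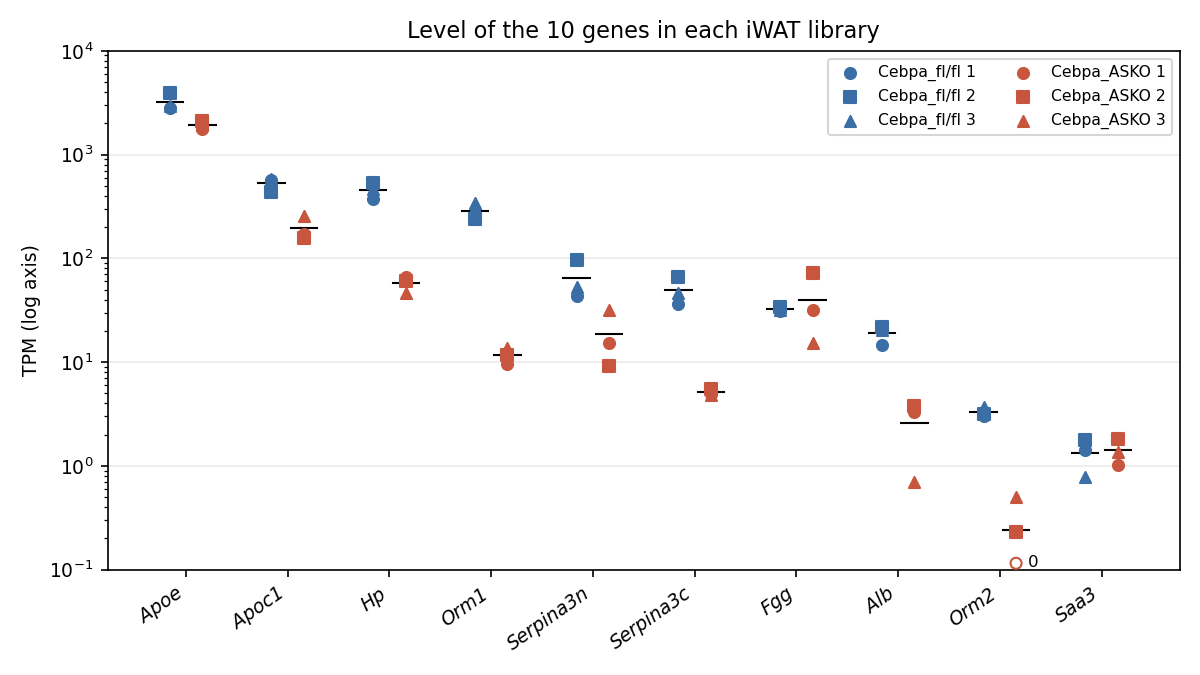
TPM of the 10 genes in each of the 3 Cebpa_fl/fl and 3 Cebpa_ASKO libraries, on a log axis, in the order of their mean in controls. Each point is a library, the short lines are means of 3 libraries, and the open symbol marks the Cebpa_ASKO 1 library, where *Orm2* was at 0 TPM; the genotypes overlap for *Fgg* and *Saa3* alone.

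The levels covered a wide range. *Apoe* led in controls with 3219 ± 615 TPM (SD, n = 3), followed by *Apoc1* with 527 ± 82.0 TPM, *Hp* with 457 ± 78.6 TPM and *Orm1* with 284 ± 53.3 TPM. The ranges of *Apoc1* and *Hp* overlapped, so their order is not fixed by these libraries. *Serpina3n* and *Serpina3c* came next, with ranges that overlapped although *Serpina3n* was the higher in every library. *Fgg*, *Alb*, *Orm2* and *Saa3* followed in that order without overlap between neighbours. In Cebpa_ASKO, *Apoe* still led with 1925 ± 188 TPM and *Apoc1* was second with 195 ± 52.7 TPM, followed by *Hp*, *Fgg*, *Serpina3n* and *Orm1*, in which the range of each overlapped that of the next. *Serpina3c* came after these, *Alb* and *Saa3* overlapped, and *Orm2* was the lowest. Together the 10 genes took 0.415%, 0.535% and 0.446% of all TPM in controls and 0.205%, 0.244% and 0.228% in Cebpa_ASKO. *Apoe* alone made up between 65.5% and 73.3% of this sum in controls and between 83.8% and 86.9% in Cebpa_ASKO.

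*Orm1* and *Orm2* encode orosomucoid, or α1-acid glycoprotein, a carrier of basic drugs and lipids in plasma. *Orm1*, on chromosome 4 of GRCm38 from 63344560 to 63348163, was at 267, 241 and 344 TPM in Cebpa_fl/fl and at 9.66, 11.7 and 13.6 TPM in Cebpa_ASKO. All 3 Cebpa_ASKO libraries lay close together and far under the lowest control, leaving 4.11% of the control mean. Its log2 fold change was -4.68 by edgeR, with SE 0.184 (standard error of the fit) and adjusted p = 0.000169 from the quasi-likelihood F test after Benjamini-Hochberg adjustment over all genes tested. No other of the 10 genes had a larger fall in this fit. *Orm2*, from 63362449 to 63365878 on the same strand, was at 3.01, 3.18 and 3.71 TPM in controls and at 0, 0.228 and 0.500 TPM in Cebpa_ASKO. The groups did not overlap, but the Cebpa_ASKO values rest on 0, 4 and 10 counts. The log2 fold change of *Orm2* was -3.80 (edgeR SE 0.700 and adjusted p = 0.0307), and it ranged from -4.85 without Cebpa_ASKO 3 to -3.31 without Cebpa_ASKO 1 and was -1.81 with limma on log2(TPM + 1). The call was lost without Cebpa_fl/fl 1 (edgeR adjusted p = 0.0753), Cebpa_fl/fl 3 (edgeR adjusted p = 0.0804) or Cebpa_ASKO 2 (edgeR adjusted p = 0.141) and with the replicate number as a block (edgeR adjusted p = 0.0941), with adjusted p values from 8.18e-08 to 0.141 over all settings.

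*Orm3* lies between these genes and fell with them, from 14.1 ± 3.72 to 1.18 ± 0.719 CPM (SD, n = 3), counts scaled by edgeR to a common library size. Its log2 fold change was -3.55 (edgeR SE 0.445 and adjusted p = 0.00725), and it was -4.18 without Cebpa_ASKO 3. Reads of the 3 genes are hard to assign, because 27.5% of the stretches of 31 bases in the *Orm1* transcript also occur in other genes, and 34.1% of those in *Orm2* and 9.42% of those in *Orm3* do. Single members are therefore less certain than their sum, and this holds most for the rare *Orm2*. Summed over the 3 genes, the family was at 157, 128 and 192 CPM in controls and at 5.77, 6.46 and 8.40 CPM in Cebpa_ASKO, or 4.33% of control (p = 0.1 by exact two-sided permutation, and 3 against 3 libraries cannot go lower). The ratio of *Orm1* to *Orm2* in TPM was 88.3, 75.6 and 92.4 in controls and 967, 49.4 and 26.6 in Cebpa_ASKO, after 0.01 TPM was added to each. The mean log2 ratio was 0.35 higher in Cebpa_ASKO and changed sign to -1.23 without Cebpa_ASKO 1, the library with no *Orm2* counts, so no difference between the falls of *Orm1* and *Orm2* was detectable (exact two-sided permutation test, p = 1, adjusted over 3 pairs of genes to 1).

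C/EBP proteins bind a short palindrome whose best known core is TTGCGCAA. RefSeq gives, for GRCm38.p6, the stretch of 250 bases before the start of 7 of the 10 genes, without *Orm1*, *Hp* and *Apoc1*. The looser form TTGCNNAA, which includes TTGCGCAA, was searched on both strands and occurred in 3142 of the 32851 windows of this length in the table, or 9.56%, and TTGCGCAA itself in 54, or 0.164%. The looser form occurred in 3 of the 7 genes, once each in *Orm2*, *Alb* and *Saa3*, and also in *Orm3*. For *Alb* and *Saa3* the RefSeq start may differ from that of the GENCODE transcripts, and the *Saa3* window reaches into the annotated gene, so these matches are less certain in position. *Orm2* was the only one with TTGCGCAA, at position -120 from the gene start, and *Orm3* had TTGCACAA at -121. Both windows are shown because the neighbouring genes fell together and their windows are 85.9% identical, at chr4:63362199-63362448 for *Orm2* and chr4:63355908-63356157 for *Orm3*, both on the plus strand, with the match in capitals.
Orm2: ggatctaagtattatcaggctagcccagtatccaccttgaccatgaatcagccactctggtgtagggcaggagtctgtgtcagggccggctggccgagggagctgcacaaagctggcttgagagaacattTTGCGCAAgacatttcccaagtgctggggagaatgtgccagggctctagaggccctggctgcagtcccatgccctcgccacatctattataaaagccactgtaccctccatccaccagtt
Orm3: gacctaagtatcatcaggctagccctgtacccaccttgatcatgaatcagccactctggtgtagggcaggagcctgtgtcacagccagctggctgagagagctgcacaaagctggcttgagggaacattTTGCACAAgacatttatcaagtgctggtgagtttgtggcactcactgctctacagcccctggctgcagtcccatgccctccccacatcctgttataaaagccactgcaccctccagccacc
A match says only that these letters are present in the window, and binding was not measured.

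*Hp* encodes haptoglobin, which binds free hemoglobin in plasma and is cleared with it by the receptor CD163. It lies on chromosome 8 from 109575128 to 109579172 and was at 375, 532 and 465 TPM in Cebpa_fl/fl and at 66.0, 60.6 and 46.5 TPM in Cebpa_ASKO. The genotypes were well apart, with the highest Cebpa_ASKO library far under the lowest control. *Hp* fell by 3.04 on the log2 scale (edgeR SE 0.212 and adjusted p = 0.000859), which left 12.6% of the control TPM. Its protein-coding transcript ENSMUST00000074898 held at least 89.9% of the gene's TPM in every library, and only 0.254% of its stretches of 31 bases occur in other genes. The receptor gene *Cd163* was not called, with 16.9, 51.0 and 14.1 TPM in controls and 17.9, 22.4 and 33.5 TPM in Cebpa_ASKO.

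*Serpina3n* and *Serpina3c* belong to a family of secreted serine protease inhibitors that has many copies in mice and is related to human α1-antichymotrypsin. *Serpina3c*, on chromosome 12 from 104146382 to 104153870, was at 35.9, 65.6 and 46.2 TPM in controls and at 4.92, 5.53 and 4.86 TPM in Cebpa_ASKO. The Cebpa_ASKO libraries were nearly equal, at 10.4% of the control mean. Its log2 fold change was -3.31 (edgeR SE 0.201 and adjusted p = 0.000724). *Serpina3n*, from 104406729 to 104414329 on the opposite strand, was at 43.0, 95.8 and 52.8 TPM in controls and at 15.1, 9.09 and 31.4 TPM in Cebpa_ASKO. Cebpa_ASKO 3 was the highest of its genotype and came nearest to the controls, while Cebpa_fl/fl 2 was the highest of all. The difference of -1.84 on the log2 scale (standard error 0.469) did not pass the test (adjusted p = 0.0826 by edgeR), and it passed without Cebpa_ASKO 3, at -2.39 (adjusted p = 0.0403 by edgeR), and with DESeq2 (adjusted p = 0.000457), with adjusted p values from 0.000457 to 0.267 over all settings.

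The ratio of *Serpina3n* to *Serpina3c* in TPM was 1.20, 1.46 and 1.14 in controls and 3.06, 1.64 and 6.46 in Cebpa_ASKO. Every Cebpa_ASKO library had a higher ratio than every control, by 1.34 on the log2 scale on average (p = 0.1 by exact two-sided permutation, which cannot go lower here, and 0.3 adjusted over the 3 pairs). The size depended on single libraries, at 0.83 without Cebpa_ASKO 3 and 1.82 without Cebpa_ASKO 2. Both transcripts share sequence with relatives, *Serpina3n* in 21.6% of its stretches of 31 bases, most often with *Serpina3f*, and *Serpina3c* in 16.9%, most often with *Serpina3m*. The sum over 10 *Serpina3* genes does not depend on how such reads were divided. It was 154, 260 and 172 CPM in controls and 37.1, 24.8 and 55.0 CPM in Cebpa_ASKO, -2.36 on the log2 scale, with no overlap (exact two-sided permutation test, p = 0.1). In place of the single genes, the summed family was called lower at a log2 fold change of -2.32 (edgeR SE 0.335 and adjusted p = 0.0124).

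Before their starts *Serpina3c* and *Serpina3n* are 90.5% identical over the window of 250 bases, and neither window holds TTGCNNAA. Both are shown because the genes are close copies whose ratio differed between the genotypes without overlap, at chr12:104153873-104154122 on the minus strand for *Serpina3c* and at chr12:104406458-104406707 on the plus strand for *Serpina3n*, from RefSeq for GRCm38.p6.
Serpina3c: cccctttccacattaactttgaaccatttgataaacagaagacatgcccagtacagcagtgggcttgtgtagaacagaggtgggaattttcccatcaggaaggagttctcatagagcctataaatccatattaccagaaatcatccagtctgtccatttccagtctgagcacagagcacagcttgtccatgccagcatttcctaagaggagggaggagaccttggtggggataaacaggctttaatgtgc
Serpina3n: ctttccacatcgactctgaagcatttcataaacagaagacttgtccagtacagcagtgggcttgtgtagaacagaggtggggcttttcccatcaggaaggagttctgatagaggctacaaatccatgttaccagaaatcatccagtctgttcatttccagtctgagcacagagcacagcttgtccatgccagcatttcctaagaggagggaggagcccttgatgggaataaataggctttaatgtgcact
No capitals are marked, since those letters do not occur in either window.

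Both genes sit in a cluster of *Serpina* genes, of which 22 were listed and 9 were tested. In this cluster 4 were called lower by edgeR, *Serpina1a*, *Serpina3c*, *Serpina3f* and *Serpina3m*, against 3.84% of all genes tested. The median of the 9 was -2.39, also with genes at 0 set to their limit of detection. Of the 22 listed DESeq2, with its own filter, called 9 lower, not the same genes as the 9 that edgeR tested, and limma called 1, *Serpina3c*. *Serpina1a*, which encodes an α1-antitrypsin, was at 0.695, 0.503 and 0.621 TPM in controls and had no counts in any Cebpa_ASKO library, so it was at least 23.3-fold lower, taking 3 counts over a genotype as the limit of detection for counting error. *Serpina3k* had no Cebpa_ASKO counts either and was at least 73.7-fold lower, but its controls spread from 0.382 to 2.61 TPM and it was not called (edgeR adjusted p = 0.0572), except without Cebpa_fl/fl 3. *Serpina3m*, whose annotated span overlaps that of *Serpina3k*, held 105 counts in controls and 1 in Cebpa_ASKO, a ratio of 100 in CPM with a 95% Clopper-Pearson interval from 15.3 to 3465 for counting error alone. *Serpina3f* fell by 2.39 on the log2 scale (adjusted p = 0.0486 by edgeR). The call of *Serpina1a* was lost without Cebpa_fl/fl 1 or 3 (edgeR adjusted p = 0.0526 and 0.0536). That of *Serpina3m* was lost without Cebpa_ASKO 1 or 2 (edgeR adjusted p = 0.0628 and 0.0549). That of *Serpina3f* was lost when any library but Cebpa_fl/fl 3 was left out (edgeR adjusted p up to 0.172). In the cluster 2 genes were called without Cebpa_fl/fl 1, Cebpa_ASKO 1 or Cebpa_ASKO 2. The relative with the next highest level in TPM was *Serpina3g*, with 9.88, 4.74 and 3.06 TPM in controls and 1.71, 2.29 and 1.67 TPM in Cebpa_ASKO.

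*Alb* encodes albumin, the main carrier protein of plasma. On chromosome 5 from 90460897 to 90476602, it was at 14.7, 21.9 and 20.2 TPM in Cebpa_fl/fl and at 3.31, 3.73 and 0.697 TPM in Cebpa_ASKO. Cebpa_ASKO 3 was the lowest, and no Cebpa_ASKO library reached the controls. The log2 fold change was -2.91 (edgeR SE 0.572 and adjusted p = 0.0374), and 13.6% of the control TPM remained. Its size stayed between -3.24 and -2.45 as each library was left out, but the call was lost without Cebpa_fl/fl 1, 2 or 3 (edgeR adjusted p = 0.0813, 0.0613 and 0.0919) and without Cebpa_ASKO 1 or 2 (edgeR adjusted p = 0.118 and 0.107). It was also lost with the replicate number as a block (edgeR adjusted p = 0.102) and with limma without a filter (limma adjusted p = 0.0556), with adjusted p values from 6.98e-07 to 0.118 over all settings. No stretch of 31 bases in *Alb* occurs in another gene.

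*Fgg* encodes the γ chain of fibrinogen, which in the liver is assembled with the α and β chains into the clotting protein. It lies on chromosome 3 from 83007724 to 83015049 and was at 31.3, 34.0 and 31.6 TPM in controls, where it hardly varied, and at 31.6, 71.6 and 15.3 TPM in Cebpa_ASKO. Cebpa_ASKO 2 was the highest and Cebpa_ASKO 3 the lowest of all 6 libraries, so the genotypes overlapped. The difference was 0.23 on the log2 scale (edgeR SE 0.490 and adjusted p = 0.863), and it was -0.48 without Cebpa_ASKO 2, with adjusted p values from 0.318 to 0.992 over all settings. *Fgb*, the β chain gene, also on chromosome 3, had the same extremes, with 4.55, 5.11 and 3.87 TPM in controls and 4.27, 9.09 and 0.995 TPM in Cebpa_ASKO. The α chain gene *Fga* had no counts in any library, so RNA for all 3 chains was not detected together. Skeletal muscle genes were also highest in Cebpa_ASKO 2. Their sums in Cebpa_ASKO 1 and 3, 2578 and 2122 TPM, lay above every control too, while *Fgg* was at 31.6 and 15.3 TPM there. The part of muscle in the *Fgg* values was not tested.

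*Saa3* encodes a serum amyloid A protein that is made outside the liver, by adipocytes and macrophages among others, and rises in inflamed fat. On chromosome 7 from 46711998 to 46715700, it was the lowest of the 10 genes in controls, at 1.41, 1.78 and 0.784 TPM, and was at 1.03, 1.82 and 1.37 TPM in Cebpa_ASKO. The genotypes overlapped fully, on 23 to 45 counts a library. Its log2 fold change of -0.022 (edgeR SE 0.290 and adjusted p = 0.978) lay between -0.19 and 0.13 over the settings, changed sign among them and was never called. The sum over *Saa1* to *Saa4* was 1.06 ± 0.257 CPM in controls and 0.880 ± 0.125 CPM in Cebpa_ASKO (SD, n = 3). The genotypes overlapped (p = 0.4, exact two-sided permutation test).

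*Apoe* and *Apoc1* encode lipoprotein proteins, the first a ligand of lipoprotein receptors and the second an inhibitor of lipoprotein lipase and of receptor uptake. They are neighbours on the minus strand of chromosome 7, *Apoe* from 19696109 to 19699188 and *Apoc1* from 19689481 to 19692660. *Apoc1* was at 571, 432 and 577 TPM in Cebpa_fl/fl and at 173, 156 and 255 TPM in Cebpa_ASKO. Even the highest Cebpa_ASKO library, the third, stayed under the lowest control, the second. The log2 fold change of *Apoc1* was -1.52 (edgeR SE 0.220 and adjusted p = 0.0126), and its call was lost without Cebpa_ASKO 1 (edgeR adjusted p = 0.0796), with adjusted p values from 1.54e-08 to 0.0796 over all settings. *Apoe* was at 2808, 3926 and 2922 TPM in controls and at 1743, 2119 and 1914 TPM in Cebpa_ASKO. Here too the genotypes did not overlap, but the gap was the smallest among the called genes, with 59.8% of the control TPM remaining. For *Apoe* the log2 fold change was -0.81 (edgeR SE 0.167 and adjusted p = 0.0432). That call was the least stable of the 7, held in 6 of the 16 settings, and was lost without Cebpa_fl/fl 1 or 3 (edgeR adjusted p = 0.115 and 0.0680), without Cebpa_ASKO 1, 2 or 3 (edgeR adjusted p = 0.173, 0.147 and 0.112), with scaling by total counts (edgeR adjusted p = 0.0648), with the replicate number as a block (edgeR adjusted p = 0.144) and in all 3 limma settings on TPM, with adjusted p values from 1.08e-07 to 0.242 over all settings.

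The ratio of *Apoe* to *Apoc1* in TPM was 4.91, 9.08 and 5.06 in controls and 10.1, 13.6 and 7.52 in Cebpa_ASKO. Cebpa_fl/fl 2 lay among the Cebpa_ASKO libraries, and the mean difference of 0.73 on the log2 scale was not past the test (exact two-sided permutation test, p = 0.2, adjusted over the 3 pairs to 0.3). *Apoe* RNA was spread over several annotated transcripts, whose shares were not tested for a difference. Over the 6 libraries the protein-coding ENSMUST00000174355 held between 57.9% and 60.6% of *Apoe* TPM, the processed transcript ENSMUST00000167646 between 30.3% and 32.8%, and the protein-coding ENSMUST00000174064 9.06% on average in controls and 8.14% in Cebpa_ASKO. Among 8 genes of the *Apoe* cluster, whose median was -0.28, edgeR called *Apoe* and *Apoc1* alone, against 3.84% of all genes tested called lower. DESeq2 called 4 lower, *Apoe*, *Apoc1*, *Apoc2* and *Clptm1*, and limma 1, *Apoc1*. Both of the latter tools called *Nectin2* higher. The count by edgeR was 1 without Cebpa_fl/fl 1, Cebpa_fl/fl 3 or Cebpa_ASKO 2 and 0 without Cebpa_ASKO 1. *Apoc2*, a cofactor of lipoprotein lipase, was at 3.52, 4.29 and 4.93 TPM in controls and at 0.786, 0.764 and 2.34 TPM in Cebpa_ASKO and was not called (log2 fold change -1.93, edgeR adjusted p = 0.0595), but it was without Cebpa_ASKO 3. The other neighbours were *Bcam*, *Nectin2*, *Tomm40*, *Clptm1* and *Apoc4*, with log2 fold changes of 0.19, 0.45, -0.17, -0.36 and -0.21, of which *Clptm1* was called lower without Cebpa_fl/fl 2.

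Of 46 other acute-phase genes, 25 were tested and 6 of these were called lower, against 3.84% of all genes tested, namely *Orm3*, *Cp*, *Serpina1a*, *Serpina3f*, *Serpina3m* and *Agt*, and the median of the 25 was -0.15, against 0.025 over all genes tested. *Agt*, the precursor of angiotensin, was at 6.63, 28.1 and 13.9 TPM in controls and at 1.16, 1.66 and 1.44 TPM in Cebpa_ASKO. Controls varied widely and Cebpa_ASKO libraries did not, and the log2 fold change was -3.54 (edgeR SE 0.494 and adjusted p = 0.0106), a call lost without Cebpa_ASKO 1 or 2 (edgeR adjusted p = 0.0754 and 0.0597). *Cp*, the copper carrier ceruloplasmin, fell by 0.81 on the log2 scale (adjusted p = 0.0252 by edgeR), with 64.2, 86.7 and 93.4 TPM in controls and 44.7, 53.7 and 47.7 TPM in Cebpa_ASKO, and its call was lost without Cebpa_fl/fl 3, Cebpa_ASKO 1, Cebpa_ASKO 2 or Cebpa_ASKO 3 (edgeR adjusted p = 0.0729, 0.122, 0.058 and 0.065), with the block and in the limma settings. None of the 46 was called higher by edgeR, with 3 at an unadjusted p below 0.05 in that direction, while DESeq2 called 1, *Itih4*, and limma 0. *Itih4*, an inter-α-trypsin inhibitor chain, was at 2.99, 2.90 and 5.32 TPM in controls and at 11.4, 9.94 and 66.3 TPM in Cebpa_ASKO, with Cebpa_ASKO 3 far above the rest (log2 fold change 2.79, adjusted p = 0.106 by edgeR). The highest genes of the list in CPM were *Serping1*, the C1 inhibitor, and *Steap4*, a metalloreductase, and neither was called. *Lcn2*, *Mt1* and *Mt2*, which rise in many acute-phase settings, had log2 fold changes of 0.44, -0.15 and 0.47 and were not called, but *Lcn2* was called higher without Cebpa_ASKO 3. Without Cebpa_ASKO 1 or Cebpa_ASKO 2 the number called lower was 2 each time, *Orm3* and *Serpina1a*, and without Cebpa_fl/fl 1 or Cebpa_ASKO 3 it was 4. DESeq2 called 10 lower and limma 2, *Orm3* and *Agt*.

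**Figure D2:**
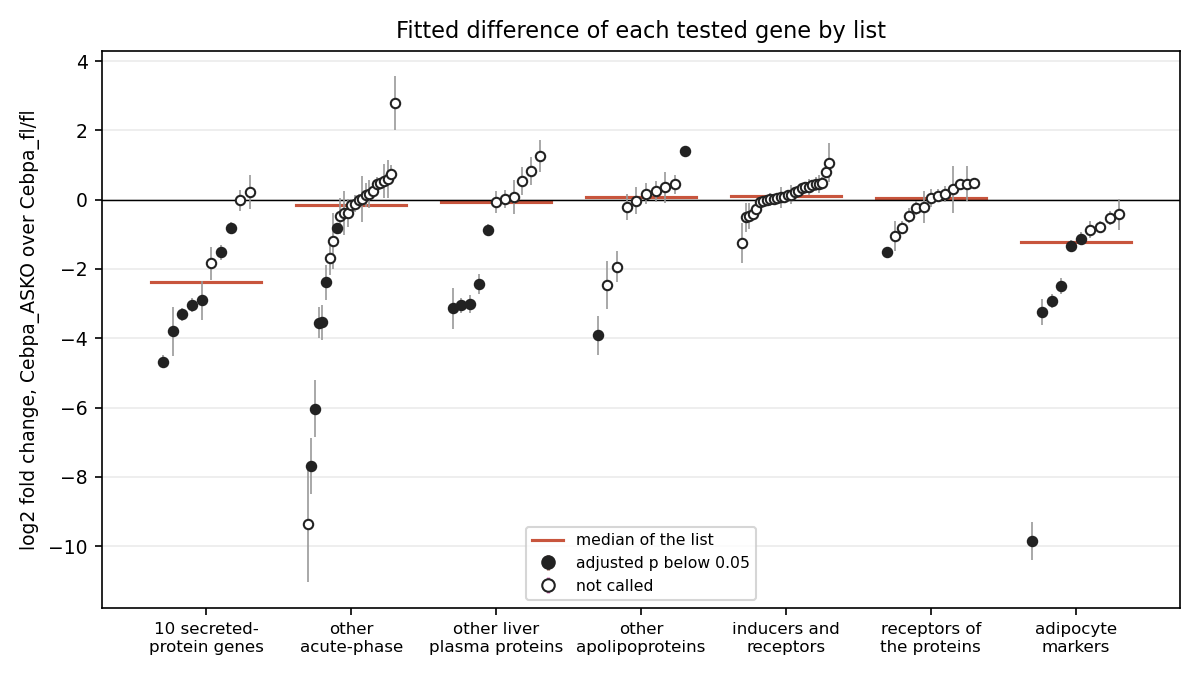
Log2 fold change, Cebpa_ASKO over Cebpa_fl/fl, of every tested gene by list, with bars for the standard error of edgeR's fit. Filled points had an adjusted p below 0.05, and the medians were -2.37 for the 10 genes, -0.15 for other acute-phase genes, 0.11 for inducers and receptors and -1.23 for adipocyte markers.

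Plasma proteins of the liver outside the acute-phase list were mostly at low levels. Of 22 such genes 11 were tested, and 15 stayed under 1 TPM in every library. By edgeR 5 were called lower, *Trf*, *Rbp4*, *Vtn*, *Azgp1* and *Igfals*, against 3.84% of all genes tested, with a median of -0.069 over the 11. DESeq2 called 5 of the list lower, the same as edgeR, and limma 4, without *Vtn*. *Trf*, the iron carrier transferrin, was by far the most abundant and was at 1144, 1985 and 1879 TPM in controls and at 195, 231 and 201 TPM in Cebpa_ASKO. *Rbp4*, the retinol carrier, was at 368, 316 and 508 TPM in controls and at 39.2, 68.2 and 46.4 TPM in Cebpa_ASKO. Both were called in all 16 settings, at log2 fold changes of -3.05 and -3.02 (edgeR adjusted p = 0.000984 and 0.00202), beside -3.04 for *Hp*. *Igfals* was called in all settings too, while *Vtn* was lost without any of the 6 libraries and *Azgp1* without Cebpa_fl/fl 1, Cebpa_fl/fl 3, Cebpa_ASKO 1 or Cebpa_ASKO 2, each time leaving 3 or 4 of the list. Both were also lost with the block, and *Vtn* in the limma settings. Among 16 other apolipoprotein genes 10 were tested, and *Apoc3* was called lower at -3.91 (adjusted p = 0.0118 by edgeR) and *Clu* higher at 1.41 (adjusted p = 0.00301 by edgeR), while *Pltp*, high in CPM, was not called. DESeq2 called *Apoc2* lower besides these, and limma called *Apoc3* and *Clu*. In edgeR the call of *Apoc3* was lost without Cebpa_ASKO 1 (edgeR adjusted p = 0.0703), and *Apod* was called higher without Cebpa_fl/fl 2. *Clu*, which encodes the chaperone clusterin, was at 85.4, 103 and 78.8 TPM in controls and at 199, 232 and 294 TPM in Cebpa_ASKO.

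Genes that induce the acute-phase response did not pass the test in either direction. Of 28 genes for cytokines, receptors, kinases and factors 26 were tested, 0 were called by edgeR, and the median was 0.11. At an unadjusted p below 0.05 by edgeR, 1 was lower and 6 were higher, beside 3185 of the 16069 genes tested in either direction. DESeq2 called *Cebpd* higher and *Nr3c1* lower, and limma called 0. *Cebpd*, a C/EBP factor that acute-phase signals induce, was at 8.75, 11.0 and 8.34 TPM in controls and at 17.8, 19.6 and 13.3 TPM in Cebpa_ASKO (log2 fold change 0.81, adjusted p = 0.0650 by edgeR), and edgeR called it without Cebpa_ASKO 3. *Nr3c1*, the glucocorticoid receptor, was at 33.6, 38.6 and 37.6 TPM in controls and at 25.7, 27.3 and 34.5 TPM in Cebpa_ASKO (log2 fold change -0.40, adjusted p = 0.0978 by edgeR). The most abundant in CPM, *Il6st*, the shared receptor chain of the interleukin-6 family, and *Jak1*, its kinase, had log2 fold changes of 0.086 and 0.038 and were not called. Among 14 receptors and lipid acceptors for these proteins 13 were tested and *Scarb1*, the HDL receptor, was called lower, from 84.4 ± 11.4 to 29.8 ± 4.60 CPM (SD, n = 3), in all 16 settings. DESeq2 called *Scarb1* and *Cd36* lower and 1 gene of the list higher, and limma called *Scarb1* lower. *Cd36* and *Lrp1*, the highest of these in CPM, were not called by edgeR, although *Cd36* did not overlap between the genotypes (log2 fold change -0.81, edgeR adjusted p = 0.0577), and *Vldlr* was called higher without Cebpa_ASKO 3.

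Hepatocyte RNA was weighed by 21 genes that define that cell type. They summed to 24.8, 22.6 and 32.4 TPM in Cebpa_fl/fl and to 7.88, 12.1 and 4.83 TPM in Cebpa_ASKO, and 16 of them stayed under 1 TPM in every library. *Apoc3* was the most abundant in controls and made up much of their sums, with 14.5, 10.5 and 23.1 TPM. In Cebpa_ASKO it was at 1.29, 0.382 and 1.61 TPM, and there the mean of *Fgb* was higher (4.79 TPM against 1.10 TPM). *Fga*, *Gc*, *Cyp3a11* and *Cyp2c29* were at 0 in all 6 libraries, and *Ttr*, *Apob*, *Cps1* and *Hnf4a* were at 0 in every control. *Hpd* was called lower besides *Apoc3* and *Serpina1a*, with 1.58, 3.94 and 2.96 TPM in controls and no Cebpa_ASKO counts, at least 75.8-fold lower. *Fgb*, at the levels given with *Fgg*, was among the highest and was not called. DESeq2 called 4 lower, *Serpina1b* besides these 3, and limma called *Apoc3* and *Hpd*. Of the 7 tested, edgeR called 3 lower, against 3.84% of all genes tested. Their median was -2.45, also with genes at 0 set to their limit of detection. Of this list 2 were called without Cebpa_fl/fl 1, Cebpa_fl/fl 3 or Cebpa_ASKO 1. With the replicate number as a block, the calls of *Hpd* (edgeR adjusted p = 0.0685) and *Serpina1a* were lost. The part of hepatocyte RNA in the levels of the 10 genes was not tested.

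Skeletal muscle genes were called higher in 10 of 15 by edgeR, against 1.39% of all genes tested, with a median of 2.12. *Ckm* was the most abundant in TPM, and the called genes included *Myh4*, *Ckm*, *Actn3*, *Casq1*, *Pvalb* and *Acta1*. Without Cebpa_fl/fl 1, Cebpa_fl/fl 3 or Cebpa_ASKO 1 only *Myh4* was called, 1 gene each time, though all 3 Cebpa_ASKO sums lay above every control. Without the muscle-rich Cebpa_ASKO 2 the number was 7, with *Ckm* at 1.88 in place of 2.42 and *Casq1* no longer called (edgeR adjusted p = 0.0570), and without Cebpa_fl/fl 2 it was 9, again without *Casq1* (edgeR adjusted p = 0.0579). DESeq2 called 12 higher and limma 10. The part of muscle and of the other cell types in the results for the 10 genes was not tested. Beside the counts at an unadjusted p below 0.05 that follow, 3185 of the 16069 genes tested passed that threshold in edgeR. The 13 mammary epithelium genes summed to 763, 556 and 1155 TPM in controls and to 1598, 1702 and 1734 TPM in Cebpa_ASKO, led by *Krt18*, with 0 called by edgeR, 8 at an unadjusted p below 0.05, 5 called by DESeq2, namely *Cdh1*, *Elf5*, *Krt18*, *Krt8* and *Ltf*, and 1 by limma, *Elf5*, while edgeR called *Elf5* without Cebpa_fl/fl 2 and *Cdh1* without Cebpa_fl/fl 3. Macrophage genes, which matter for *Apoe* and *Apoc1*, had 0 of 15 called by edgeR, DESeq2 or limma and 2 at an unadjusted p below 0.05, and summed to 1814, 2058 and 2936 TPM in Cebpa_ASKO, with *C1qa* after *Lyz2* in CPM and *Trem2* called higher without Cebpa_fl/fl 2. Fibroblast and progenitor genes had 0 of 12 called by any of these tools and 0 at an unadjusted p below 0.05, and they summed to 3160.2, 6344 and 3178 TPM in controls and to 4436, 4767 and 6019 TPM in Cebpa_ASKO, led by *Dcn* and *Col3a1*. Without Cebpa_fl/fl 2, *Lum* and *Ly6a* were called higher. Of 9 endothelial genes *Emcn* and *Cldn5* were called lower by edgeR, but 0 were called without Cebpa_fl/fl 1, 2 or 3 or without Cebpa_ASKO 1, and *Cldn5* alone without Cebpa_ASKO 2. DESeq2 called 3 lower, *Cdh5* besides these, and limma 0, with 4 at an unadjusted p below 0.05 by edgeR. The endothelial sums were 175, 227 and 196 TPM in controls and 124, 128 and 226 TPM in Cebpa_ASKO, led by *Lyve1* and, in CPM, *Pecam1*. Neutrophil genes summed to between 15.5 and 26.9 TPM, led by *Mmp9* and *Csf3r*, with 0 of 11 called by edgeR, 1 at an unadjusted p below 0.05 and 1, *Elane*, called by DESeq2 and limma, and by edgeR without Cebpa_ASKO 3. None of the 10 lymphocyte genes was called by edgeR or limma, with 6 at an unadjusted p below 0.05 and *Cd3e* and *Nkg7* called by DESeq2, and *Ptprc* was the most abundant.

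**Figure D3:**
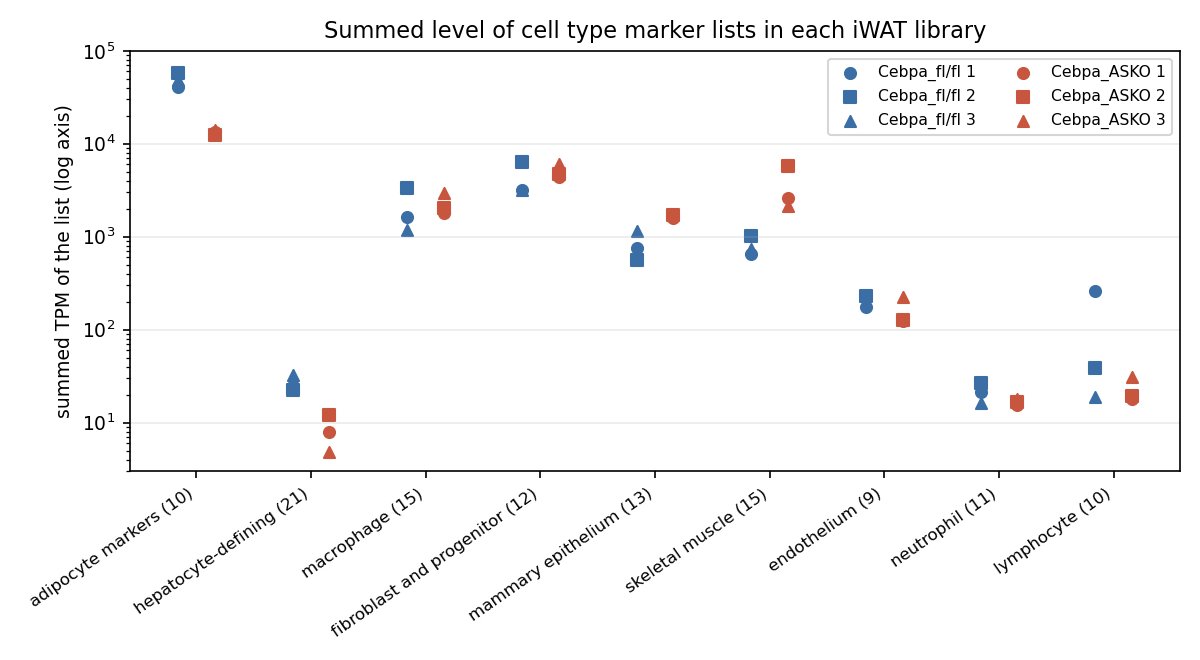
Summed TPM of 9 lists of cell type markers in each library, on a log axis, with the number of genes in parentheses. The adipocyte and hepatocyte lists lie lower, the latter with much of its control sum from *Apoc3*, and the skeletal muscle and mammary lists higher in all 3 Cebpa_ASKO libraries than in any control, and the lymphocyte list stands out in Cebpa_fl/fl 1 with 264 TPM.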

How the data were processed

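Poly-A RNA from whole iWAT of 3 Cebpa_fl/fl and 3 Cebpa_ASKO mice was sequenced, and samples were grouped by the genotype in their labels. For every transcript of each library the authors deposited an estimated count, not normalized, and TPM, and they deposited TPM summed per gene symbol as well. The submitters' processing notes name kallisto 0.44.0 and the builds GRCm38.p6 and GRCh38.p12 without their roles, and the mouse build is assumed here. Here 116816 of 118489 transcripts were matched by identifier to GENCODE M21, counts were summed per symbol and rounded, and for all 10 genes the matched transcripts gave the deposited gene TPM within 0.1%. kallisto divides reads among similar transcripts, which bears on *Orm* and *Serpina3* genes.

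Cebpa_ASKO was compared with Cebpa_fl/fl by edgeR 4.0.16 in R 4.3.3 (quasi-likelihood test, TMM scaling, default filter, Benjamini-Hochberg adjustment over 16069 genes), with no covariate. Genes with an adjusted p under 0.05 count as called. Alternatives were DESeq2 1.42.0, its size factors in edgeR, total counts, all genes with a count, at least 10 counts in every library, limma 3.58.1 on log2(TPM + 1) and log2(TPM + 0.1) for genes with at least 1 TPM in 3 libraries, limma without that filter, the replicate number as a block, summed families, and each library left out. Single values were compared by exact two-sided permutation over 20 arrangements, with a smallest p of 0.1. Libraries held 33141769 to 49477671 counts, and intervals and limits cover counting error only. Replicates differed by more than sampling noise (25.9 to 224 in chi-square over its degrees of freedom) and were used as separate samples. The edgeR procedure was tested on simulated data in which 200 genes were changed. It recovered 39.8% of genes changed by 1 on the log2 scale and 88% of those changed by 2, and 5.8% of its calls were false. A gene that is not called can therefore still differ, above all at small differences.

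The 10 genes and the lists were chosen with earlier results of these data known. Named are the 10 genes, *Cebpa*, of each list the called genes (at most 6 a direction) and the 2 highest in CPM, and genes that a small count refers to. *Mt1*, *Mt2*, *Serpina3k*, *Serpina3g*, *Cd163*, *Apoc2*, the other *Apoe* neighbours and *Ttr*, *Apob*, *Cps1* and *Hnf4a* were named after their values were seen.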

Additional observations from a re-analysis of the deposited data

How the results depend on the processing

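*Orm1*, *Hp* and *Serpina3c* kept their direction and their call in all 16 settings. The number of genes called in all, 840 here, was 1796 with DESeq2, 370 with the replicate number as a block, 359 with limma without a filter, and from 311 to 922 with a library left out. The 10 genes had 7 called lower, 4 with the block, and from 4 to 7 with a library left out. Replicate numbers did not pair the libraries, since the deviations of same-numbered libraries correlated at 0.0662, 0.0278 and -0.201, and the cause of the calls lost there was not tested. Among other acute-phase genes 6 were called lower, against 10 with DESeq2, 3 with at least 10 counts in every library (where fewer genes are tested), 3 with the block, 2 in each limma setting, and from 2 to 5 with a library left out. In that list 0 were called higher, 1 with DESeq2, and from 0 to 1 with a library left out. Of inducers and receptors, 0 were called lower and 1 with DESeq2, while 0 were called higher, 1 with DESeq2 and 1, *Osmr*, with total counts, and from 0 to 1 with a library left out. *Fgg* turned from 0.23 to -0.039 with the block and ranged from -0.48 to 0.61 with a library left out. *Saa3* turned from -0.022 to 0.023 with total counts, to 0.059 with limma on log2(TPM + 1), with or without the filter, and to 0.11 on log2(TPM + 0.1), and ranged from -0.19 to 0.13 with a library left out. The cause of these changes was not tested, beyond fewer samples where a library was left out. For *Orm2* no value could be had at 10 counts in every library. *Orm2* had 14 counts over the Cebpa_ASKO libraries and *Saa3* 89, and the effect of depth on them was not tested.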
